A study of Mus musculus with 6 samples.

Results

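The genes described here carry peptides into the endoplasmic reticulum and load them onto MHC class I molecules. They were chosen by name, as a list of 9 genes: Tap1, Tap2, Tapbp, Tapbpl, Nlrc5, Erap1, Calr, Canx and Pdia3. Of these, 8 were found among the 8390 genes of the deposited mouse liver table, and all 8 passed the filter on low values. Nlrc5, the transactivator of class I genes, has no row under its symbol or any of 3 synonyms and was not analysed here. The 8 genes fall into 5 that serve class I loading (Tap1, Tap2, Tapbp, Tapbpl and Erap1) and 3 general chaperones of glycoprotein folding that class I molecules also use (Calr, Canx and Pdia3).

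RNA sequencing was done on whole livers of C57BL/6 mice, an inbred strain. The LV group has 3 liver samples taken 4 h after 3e8 transducing units of lentiviral vector (disabled retroviral particles built for gene transfer) were given by vein. The untreated group has 3 liver samples labelled as having no treatment, with no mock injection, so the vector and the injection cannot be told apart. The sources used here give no age, sex or vector cargo. The labels number the replicates but do not say that each came from a separate mouse, so p-values reflect only how these 6 samples vary, which may be technical. Values are a whole-number score that the authors appear to have scaled and rounded, with column sums of 497295 to 526009, and the read depth is unknown. LV replicate 3 and untreated replicate 2 stood apart from the rest in male-biased liver genes. Elovl3 had 169 and 159 in this pair, against 0 to 4 in the other libraries, and Cyp4a12a had 186 and 136, against 0 to 3. Cyp2b9 went the other way, with 8 and 5 against 121 to 157. Results are therefore also given without this pair.

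Peptides cut by the proteasome in the cytosol enter the endoplasmic reticulum through TAP, a pump made of the TAP1 and TAP2 proteins that uses ATP. There tapasin, the product of Tapbp, holds an empty class I molecule next to TAP together with calreticulin and ERp57, and the aminopeptidase ERAP1 trims peptides to the length that class I molecules bind. Interferons are known to induce the transporter, tapasin and the immunoproteasome, while calreticulin, calnexin and ERp57 fold glycoproteins in every cell type and are controlled mainly by the load of the endoplasmic reticulum.

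Livers taken after the vector had more RNA of the peptide transporter and of tapasin, with the largest difference of the 8 genes in Tap1, at 95 ± 20 in LV livers and 13.7 ± 0.58 in untreated livers (SD, n = 3 each), or 6.95 times. Tap2, Tapbp and Tapbpl had 2.67, 2.75 and 2.68 times the untreated means, and Erap1 had 1.36 times. The general chaperones had ratios of 0.98 for Calr, 1.02 for Canx and 1.00 for Pdia3. In limma over all 8386 tested genes, 3 of the 8 genes were called higher (Tap1, Tap2 and Tapbp) and 0 lower at a Benjamini-Hochberg adjusted p under 0.05, where 4.63% of all genes were called, 3.76% higher and 0.87% lower. At an unadjusted p under 0.05, Tapbpl was also higher and again 0 were lower, with 772 genes of the table higher and 866 lower. In all 5 class I loading genes every LV value lay above every untreated value, and in 0 of the 3 chaperones did the groups separate. Over all tested genes, 8.65% had all LV values above and 11% had all LV values below the untreated ones. The bulk samples cannot tell a change in RNA per cell from a change in the share of a cell type.

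**Figure D1:**
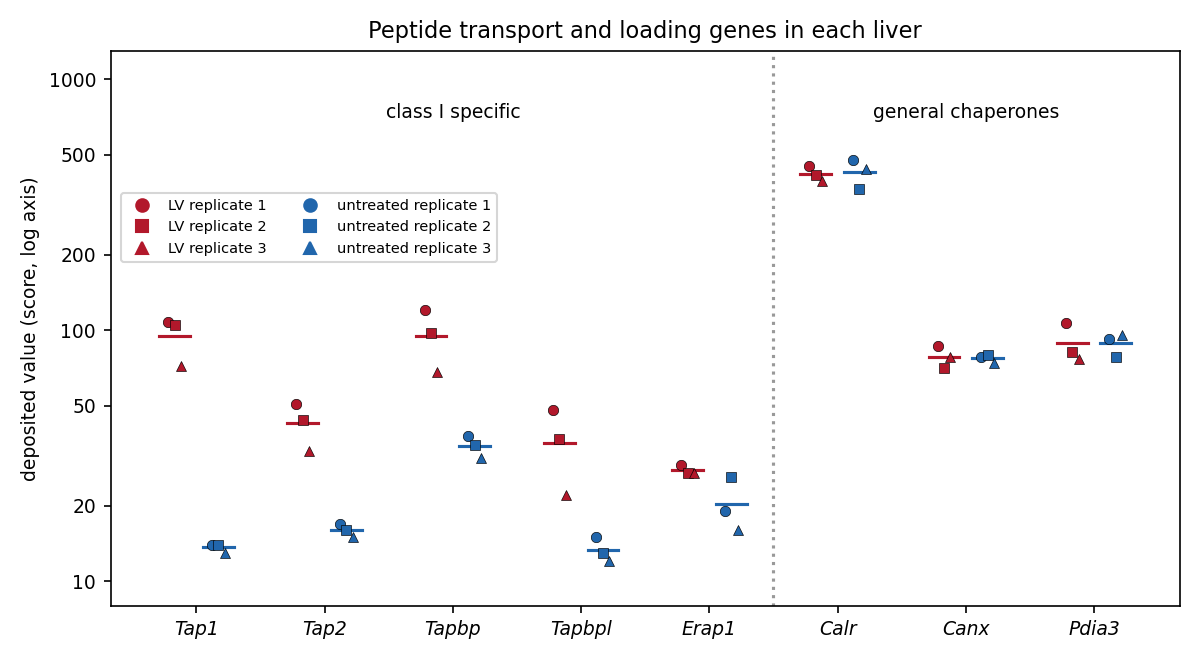
Deposited value (score, log axis) of the 8 genes in each liver, with LV livers in red to the left of untreated livers in blue, a marker shape for each replicate number and a bar at each group mean. The LV values of Tap1 (72 to 108) lie far above the untreated ones (13 to 14), while those of Calr, Canx and Pdia3 overlap.

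Tap1 encodes a subunit of the transporter. It had 108, 105 and 72 in the LV livers, against 14, 14 and 13 in the untreated livers. The untreated livers were nearly alike, and the lowest LV liver, replicate 3, was still several times above them. On the log2(value + 1) scale the difference was 2.69 ± 0.17 (SE; adjusted p = 0.00171 in limma), which ranked 74 by size among 8386 tested genes. Tap1 was called in each of the 6 fits that left out a library, with adjusted p between 0.00203 and 0.0206. Without LV replicate 3 and untreated replicate 2 its difference was 2.89 (adjusted p = 0.00559).

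Tap1 and Psmb9, an immunoproteasome subunit gene, are neighbours in the class II region of the MHC on chromosome 17 and are read in opposite directions. The run of 225 bases between their annotated starts is shown because both genes were higher in the LV livers. It is given 5′ to 3′ on the + strand, the strand of Tap1, from RefSeq on GRCm38.p6 (chr17:34187331-34187555), and the capitals mark the CCAAT box next to the start of Psmb9:
Tap1 to Psmb9 interval: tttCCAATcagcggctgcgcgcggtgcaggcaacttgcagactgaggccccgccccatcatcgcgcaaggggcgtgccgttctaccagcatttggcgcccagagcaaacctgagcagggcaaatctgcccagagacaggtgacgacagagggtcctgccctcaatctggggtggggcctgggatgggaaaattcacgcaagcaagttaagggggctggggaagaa
Psmb9 had 107, 91 and 63 in LV livers, against 21, 15 and 19 in untreated livers (log2 difference 2.17 ± 0.23, limma adjusted p = 0.00867). Psmb8, the immunoproteasome gene that lies between Tap1 and Tap2, had 90, 77 and 50 in LV livers, against 21, 19 and 19 in untreated livers (1.79 ± 0.23, adjusted p = 0.0142). LV replicate 1 was the highest and LV replicate 3 the lowest LV liver for each of Psmb9, Tap1, Psmb8 and Tap2. The Psmb9 call was lost without LV replicate 2 or untreated replicate 3 (adjusted p up to 0.0611), and the Psmb8 call held only without LV replicate 3. The ratio of Tap1 to Psmb9 was 1.01, 1.15 and 1.14 in LV livers and 0.667, 0.933 and 0.684 in untreated livers. The files hold no strand or transcript information on this interval.

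Tap2 encodes the partner subunit of the transporter. It had 51, 44 and 33 in LV livers, against 17, 16 and 15 in untreated livers, with no overlap. The log2 difference was 1.34 ± 0.17 (limma adjusted p = 0.0148), and the call held only without LV replicate 3 when single libraries were left out. With LV replicate 1 or 2 or an untreated library removed, adjusted p was 0.0515 to 0.0954. Without LV replicate 3 and untreated replicate 2 the difference was 1.51 (adjusted p = 0.0431).

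The transporter subunits did not move by the same factor. The ratio of the Tap1 score to the Tap2 score was 2.12, 2.39 and 2.18 in LV livers, against 0.824, 0.875 and 0.867 in untreated livers. These ratios were close within each group and separated the groups, although Tap1 ran from 72 to 108 and Tap2 from 33 to 51 among LV livers. Whether the scores are comparable between genes is not stated, so the ratio is read between livers and not as a proportion of subunits. When Tap2 was subtracted from every gene within each library, Tap1 was higher by 1.35 ± 0.22 on the log2 scale (limma adjusted p = 0.000163), and 1.57% of tested genes were called higher relative to Tap2. Adjusted p values lay between 4.14e-05 and 0.000809 when single libraries were left out. This test was added after the values were seen. Subtracting the same Tap2 values from every gene changes the variances that limma pools. The SE of Tap1 was larger than in the fit without subtraction (0.17) although the adjusted p was smaller. The adjusted p values of these fits are therefore not comparable.

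Tapbp encodes tapasin, which bridges TAP and class I molecules. It had 120, 98 and 68 in LV livers, against 38, 35 and 31 in untreated livers. The groups were separate, and LV replicate 1 had the highest value. The log2 difference was 1.40 ± 0.22 (limma adjusted p = 0.0319), and again the call held only without LV replicate 3, with adjusted p values of 0.0847 to 0.148 when another library was left out. Without LV replicate 3 and untreated replicate 2 the difference was 1.63 (adjusted p = 0.0643).

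Tapbpl encodes TAPBPR, a tapasin relative that edits peptides on class I molecules without binding TAP. It had 48, 37 and 22 in LV livers, against 15, 13 and 12 in untreated livers. The groups did not overlap, but the LV livers spread from 22 to 48. The log2 difference of 1.29 ± 0.29 did not pass over all genes (limma adjusted p = 0.0815), and passed without LV replicate 3 (1.60, adjusted p = 0.0187). It also passed when only genes with a mean of at least 5 were tested (adjusted p = 0.0473), and when libraries were scaled to equal totals (0.044), to a median ratio (0.033) or to the upper quartile (0.0345). The ratio of Tapbp to Tapbpl was 2.50, 2.65 and 3.09 in LV livers and 2.53, 2.69 and 2.58 in untreated livers, so these relatives had overlapping ratios in the groups, unlike Tap1 and Tap2.

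Erap1 encodes the trimming aminopeptidase. It had 29, 27 and 27 in LV livers, against 19, 26 and 16 in untreated livers. Untreated replicate 2 reached 26, just under the lowest LV value of 27. The log2 difference was 0.45 ± 0.18 (95% interval -0.001 to 0.91, limma adjusted p = 0.256), and Erap1 was called in 0 of the 6 fits that left out a library.

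**Figure D2:**
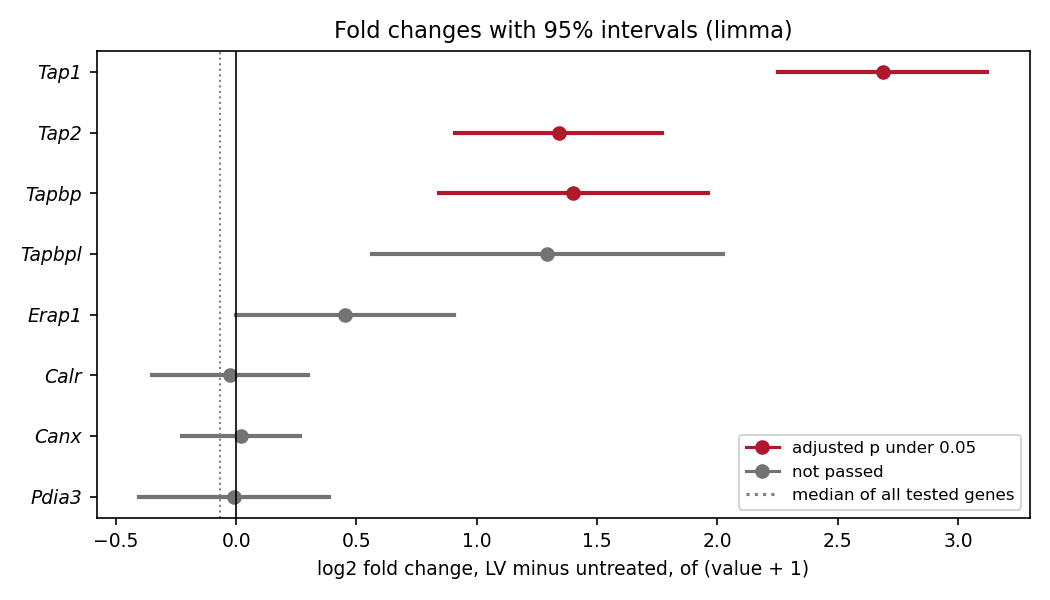
Log2 fold change (LV minus untreated, of value + 1) of the 8 genes with 95% intervals from limma, red where the adjusted p was under 0.05 and grey otherwise; the dotted line is the median of all tested genes (-0.07). The interval of Tap1 (2.25 to 3.12) lies above that of Tap2 (0.91 to 1.77), and the intervals of Calr, Canx and Pdia3 hold 0.

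Calr encodes calreticulin, the soluble lectin chaperone of the loading complex. It had 450, 415 and 392 in LV livers, against 479, 365 and 441 in untreated livers. The untreated livers spanned the whole LV range. The log2 difference was -0.02 (95% interval -0.35 to 0.30, adjusted p = 0.951 in limma).

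Canx encodes calnexin, the membrane-bound lectin chaperone that holds new class I heavy chains. It had 87, 71 and 78 in LV livers, against 78, 80 and 74 in untreated livers. The highest and the lowest value were both LV livers. The log2 difference was 0.02 (interval -0.23 to 0.27, adjusted p = 0.944 in limma).

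Pdia3 encodes ERp57, a disulfide isomerase that forms a pair with tapasin. It had 107, 82 and 77 in LV livers, against 92, 78 and 96 in untreated livers. Both group means were 88.7. The log2 difference was -0.01 (interval -0.40 to 0.39, adjusted p = 1.00 in limma). At an unadjusted p under 0.05 there were also 0 calls among these 3 genes. The intervals leave room for changes of up to 0.40 lower or 0.39 higher on the log2 scale, and the sign of each chaperone's difference depended on which library or scaling was used.

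Promoter windows from RefSeq (GRCm38.p6) were found for 6 of the 9 genes: Tap1, Tapbp, Erap1, Calr, Canx and Pdia3. The 250 bases before the annotated start were searched on both strands for the endoplasmic reticulum stress element (ERSE, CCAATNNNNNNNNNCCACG), through which unfolded protein raises chaperone genes. It was found in Calr and Canx and in 0 of the other 4 windows, and 0.122% of 27025 promoters hold it. Both windows are shown with the element in capitals, since an element shared by these chaperones was absent from the Tap1, Tapbp and Erap1 windows, and also from that of Pdia3. Each runs 5′ to 3′ on its gene's own strand, the - strand, at chr8:84846932-84847181 for Calr and chr11:50325674-50325923 for Canx:
Calr: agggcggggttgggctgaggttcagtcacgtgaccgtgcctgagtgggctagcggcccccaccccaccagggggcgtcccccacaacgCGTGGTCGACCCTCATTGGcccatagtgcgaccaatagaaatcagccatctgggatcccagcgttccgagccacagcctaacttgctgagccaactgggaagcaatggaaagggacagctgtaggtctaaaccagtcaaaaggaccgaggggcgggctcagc
Canx: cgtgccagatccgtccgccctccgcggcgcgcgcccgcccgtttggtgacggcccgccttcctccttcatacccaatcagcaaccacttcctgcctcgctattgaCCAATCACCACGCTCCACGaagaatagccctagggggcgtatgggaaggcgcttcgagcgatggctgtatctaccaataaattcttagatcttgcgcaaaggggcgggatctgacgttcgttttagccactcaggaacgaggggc
In Calr the element lies on the opposite strand, 144 to 162 bases before the start, and in Canx on the gene's strand, 127 to 145 bases before it. The element contains a CCAAT box, which alone was found in 5 of the 6 windows and in 34.5% of all promoters. The core of the interferon-stimulated response element (GAAANNGAAA, in 3.04% of promoters) and that of the gamma-activated site (TTCNNNGAA, in 7.18%) had 0 matches in the 6 windows. This says only that these letters are not in these windows.

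The class I loading genes were then set against the chaperones within each library. With Canx as the base, the Tap1 ratio was 1.24, 1.48 and 0.923 in LV livers and 0.179, 0.175 and 0.176 in untreated livers. The untreated livers were almost identical in this ratio, and LV replicate 3 was the lowest LV liver. The ratio of Tapbp to Canx was 1.38, 1.38 and 0.872 in LV livers and 0.487, 0.438 and 0.419 in untreated livers. The ratio of Tapbp to its partner Pdia3 was 1.12, 1.20 and 0.883 in LV livers and 0.413, 0.449 and 0.323 in untreated livers. None of these ratios overlapped between the groups. The ratio of Pdia3 to Canx overlapped, with 1.23, 1.15 and 0.987 in LV livers and 1.18, 0.975 and 1.30 in untreated livers.

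Each loading gene was tested for a change relative to the mean log2 value of the 3 chaperones in the same library, in a fit over all genes that was added after the values were seen. Tap1 was higher by 2.69 ± 0.19 (limma adjusted p = 1.41e-05), Tap2 by 1.35 ± 0.18 (adjusted p = 0.00138), Tapbp by 1.41 ± 0.20 (adjusted p = 0.00185) and Tapbpl by 1.30 ± 0.24 (adjusted p = 0.0095). Erap1 had 0.46 ± 0.23 (adjusted p = 0.441). In this fit 4.15% of tested genes were called higher. Tap1, Tap2 and Tapbp were called without any single library, and Tapbpl was lost without LV replicate 2 (adjusted p = 0.0639). Subtracting the same chaperone values from every gene changes the variances that limma pools. Tap1 had a larger SE here than in the fit without subtraction (0.17) but a smaller adjusted p. These adjusted p values and calls are therefore not comparable with those of the direct fit, and are not stronger evidence. The median log2 difference of the 5 loading genes was 1.34 and that of the 3 chaperones -0.01, against -0.07 over all tested genes.

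**Figure D3:**
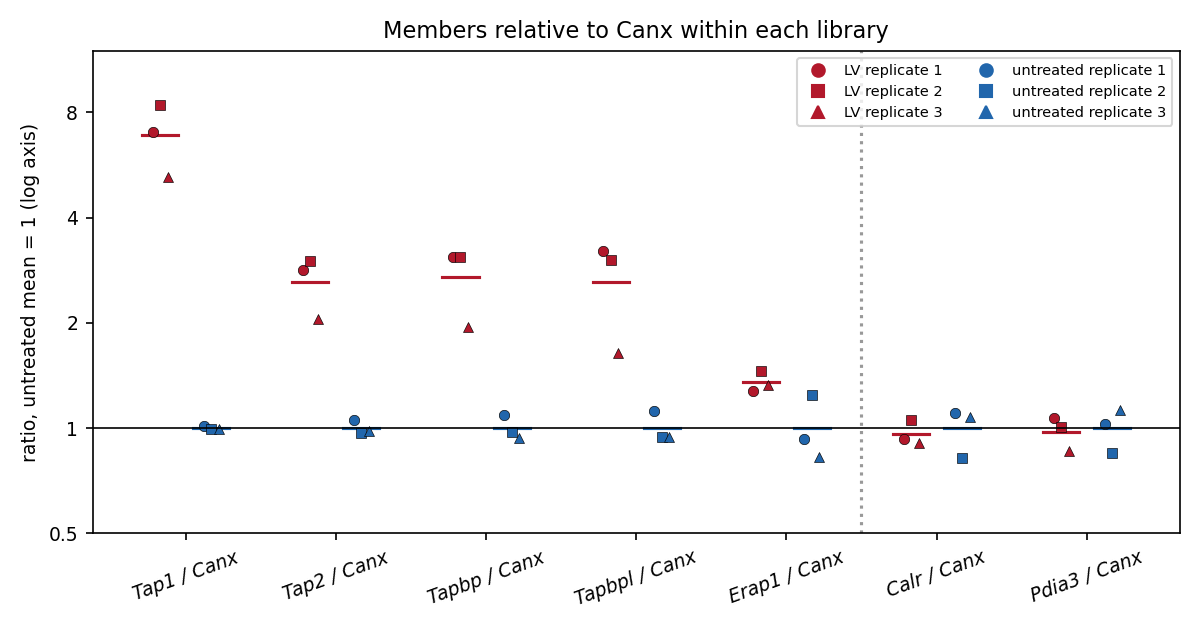
Ratio of each gene's score to that of Canx in the same library, divided by the mean ratio of the untreated livers (log axis), with LV livers in red to the left of untreated livers in blue, a marker shape for each replicate number and bars at group means. Tap1, Tap2, Tapbp, Tapbpl and, only narrowly, Erap1 lie above the untreated livers in every LV liver, and Calr and Pdia3 overlap with them.

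The LV livers differed in degree. Relative to the untreated mean, the median of the 5 loading genes on the log2 scale was 1.77, 1.41 and 0.96 in LV replicates 1, 2 and 3. The same median was 0.08, 0.02 and -0.14 in untreated replicates 1, 2 and 3. LV replicate 3 was the lowest LV liver in 4 of the 5 genes, with Erap1 tied, and LV replicate 1 the highest in all 5. LV replicate 3 is also the LV liver that stood apart in male-biased genes. Whether that bears on its lower values was not tested. Among the 315 genes called higher over the table, LV replicate 3 was lowest in 72.7% and LV replicate 1 highest in 58.7%. LV replicate 1 was also the highest LV liver for all 3 chaperones.

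By likeness across the 6 libraries, the 5 genes closest to Tap1 among 4771 others with a mean of at least 10 were Samhd1, Oas1g, Saa1, Zbp1 and Ccl2 (Pearson r of 0.999 to 1.00 on log2 values). That mean is over all 6 libraries. Samhd1, Oas1g, Zbp1 and Ccl2 were below 10 in every untreated liver, and so passed this limit only through their LV values. Ccl2 was at 0 in every untreated liver. Samhd1, a nucleotide hydrolase that restricts retroviruses, had 53, 49 and 35 in LV livers and 7, 7 and 6 in untreated livers, which is 6.85 times the untreated mean. All these correlations share the same libraries and rest mainly on the gap between the groups, so they are given as a description. The gene closest to Calr was Arf5 (r = 0.987), and Ppib, a proline isomerase of the endoplasmic reticulum, was among its 5 closest (r = 0.974, with 236, 210 and 190 in LV livers and 252, 188 and 235 in untreated livers). Psmc5, a proteasome subunit, was closest to Canx (r = 0.973), and Rbbp7 was closest to Pdia3 (r = 0.974).

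Upstream and downstream steps of class I presentation changed in part. Over all tested genes, 3.76% were called higher and 0.87% lower. Of 8 measured genes of the immunoproteasome and its activators, 3 were higher (Psmb8, Psmb9 and Psmb10), with a list median of 0.80. Psmb10, a catalytic subunit, had 133, 98 and 72 in LV livers and 31, 31 and 40 in untreated livers (1.51 ± 0.25, adjusted p = 0.0351 in limma). Psme2, an activator subunit, had a log2 difference of 1.11 (adjusted p = 0.101). Of 10 measured class I heavy chain genes and B2m, 4 were higher (H2-T22, H2-Q8, H2-T23 and H2-Q6, median 0.81), and reads can be split between these close paralogs in unknown ways. H2-D1 (0.58), H2-K1 (0.28) and B2m (0.08) were not called with all libraries (limma adjusted p of 0.0995, 0.194 and 0.853). Psmb8 and Psmb10 were each called only without LV replicate 3 when a library was left out, and the immunoproteasome list had 0 calls without LV replicate 2 or untreated replicate 3. Among the heavy chains, H2-T22 was called in 4 of the 6 fits that left out a library, H2-Q8 in 2, H2-Q6 in 1 (without LV replicate 3) and H2-T23 in 0 (adjusted p of 0.0623 to 0.134), and the heavy chain list had 0 calls without LV replicate 2.

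Among 12 measured factors that act at class I and interferon-responsive promoters, 3 were higher (Irf1, Rfx5 and Irf8, median 0.17). The share called higher over all tested genes was 3.76%. Irf1, a transcription factor that induces class I genes, had 92, 81 and 77 in LV livers and 21, 17 and 15 in untreated livers (2.18 ± 0.15, limma adjusted p = 0.00178). Rfx5, a subunit of the complex through which NLRC5 acts, had 7, 6 and 7 in LV livers and 3, 3 and 2 in untreated livers (1.07 ± 0.14, adjusted p = 0.0173, and up to 0.0855 with a library left out). Irf8 was called with all libraries and without LV replicate 3 but in no other of these fits, Rfx5 in 2 of the 6 fits that left out a library, and Irf1 in all 6. Of 13 measured genes in a mixed list of protein translocation, class I turnover and interferon signalling, 2 were higher (Stat2 and Irf9; median 0.03). Stat2 was called in all 6 fits that left out a library, and Irf9 in 2, without LV replicate 3 or untreated replicate 2 (adjusted p up to 0.0677 in the others).

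Of 13 measured peptidases other than Erap1, 1 was higher, the aminopeptidase Rnpep (41, 32 and 29 in LV livers, 19, 19 and 16 in untreated livers; 0.87 ± 0.15, limma adjusted p = 0.0431), and this call was lost without any single library. The list median was 0.00. Other transporters of the ABC subfamily to which the TAP genes belong gave 0 calls among 6 measured (0 higher and 1 lower at an unadjusted p under 0.05). All 6 had negative differences (median -0.21), as had 4865 of the 8386 tested genes. The nearest to a call was Abcb6, a porphyrin transporter, with 28, 28 and 34 in LV livers and 38, 38 and 37 in untreated livers (limma adjusted p = 0.160, and called lower without LV replicate 3). Over all tested genes 3.76% were called higher and 0.87% lower, so neither count shows a list that stands apart from the table.

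Other genes of protein folding in the endoplasmic reticulum gave 0 calls, where 4.63% of all genes were called, so lists of this size are too short to show that they stand apart from the table. These were 14 chaperones and cofactors (median 0.08), 14 genes of disulfide exchange (median 0.01) and 14 genes of the glycoprotein folding cycle and cargo export (median -0.11). At an unadjusted p under 0.05 these lists had 1 higher gene, Pdia5, and 0 lower. Hspa5, the main chaperone sensor of unfolded protein, had 321, 274 and 222 in LV livers, against 241, 248 and 156 in untreated livers (0.35 ± 0.24, limma adjusted p = 0.458). Pdia5, a disulfide isomerase, had 50, 58 and 43 in LV livers and 39, 41 and 40 in untreated livers (0.31 ± 0.12, adjusted p = 0.248).

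**Figure D4:**
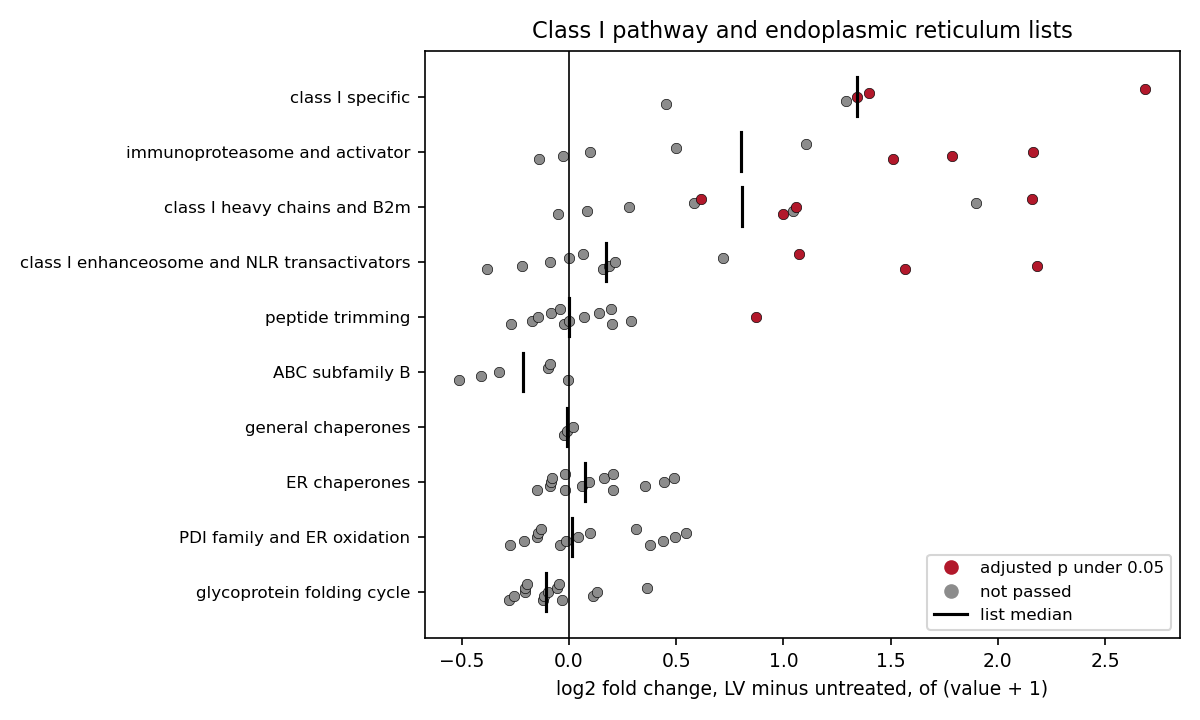
Log2 fold change (LV minus untreated, of value + 1) of each measured gene in 10 lists, red where the limma adjusted p was under 0.05 and grey otherwise, with a black bar at each list median. Calls occur among loading genes, immunoproteasome, heavy chains, promoter factors and peptidases, and none among the folding lists or the ABC transporters.

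Markers of other liver cells were measured beside these genes. Hepatocyte markers (9 of 9 measured) summed to 69077 to 79207 in LV livers and 74835 to 100147 in untreated livers. The list median was a log2 difference of -0.20, and Alb made up most of the sum. Kupffer cell and macrophage markers (11 of 13) summed to 221 to 416 in LV livers and 298 to 432 in untreated livers, with a median difference of -0.52 and 8 of 11 negative. Sinusoidal endothelial markers (10 of 10) summed to 98 to 170 in LV livers, below the 177 to 203 in untreated livers, with a median difference of -0.46 and 7 of 10 negative. Much of the gap between these sums came from Clec4g, with 11, 43 and 33 in LV livers and 55, 54 and 58 in untreated livers. In 3 of the 10 all LV values lay below all untreated ones, and in 1 above. Over all tested genes these shares were 11% and 8.65%. Stellate cell markers (9 of 9) summed to 83 to 141 in LV livers and 86 to 121 in untreated livers (median 0.18). The median of all tested genes was -0.07, with 4865 of 8386 negative and 4.63% called in either direction. Each of these 4 lists gave 0 calls in limma (1 gene higher and 1 lower in each at an unadjusted p under 0.05), although Lrat, a stellate cell marker, was called lower without LV replicate 1, and no measured marker was at 0 in any library. Of 13 lymphocyte markers only Ptprc had a row (2, 3 and 2 in LV livers, 2, 2 and 1 in untreated livers), of 5 cholangiocyte markers only Spp1 (20 to 31 in LV livers, 18 to 35 in untreated livers), and of 8 neutrophil and 8 dendritic cell markers 0. The part of cell composition in the Tap1, Tap2 and Tapbp results was not tested.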

How the data were processed

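Total RNA of whole liver was sequenced after TruSeq library preparation, per the labels' protocols. The submitters' processing notes name genome build mm9; no aligner, annotation or counting tool is given in the sources used here. What the authors deposited is taken to be a score, normalized and rounded to whole numbers. This is read from the values: column sums are nearly alike, and where a gene averaged 2 to 5, the replicates' variance divided by their mean was 0.246 (LV) and 0.238 (untreated), below the 1 that counted reads give. Depth is therefore unknown, and rounding hides small differences.

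Columns were matched to samples by the sample descriptions, and groups and replicate numbers follow the titles. Because the values are a score, no count model was used. The filter asked for 3 or more libraries at 1 or above and kept 8386 of 8390 genes. Groups were compared on log2(value + 1) by limma 3.58.1 under R 4.3.3 (intensity trend, two-sided p, Benjamini-Hochberg adjustment over all tested genes, threshold 0.05). The fit was tested on simulated data. Fold changes are LV minus untreated and understate the change of low genes. Relative tests subtracted Tap2, or the mean log2 of Calr, Canx and Pdia3, from every gene in each library first.

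The genes and lists were chosen with earlier results of these data known. All members are described; from each other list, those named are among the 4 with the smallest p, and the neighbours of Tap1 and Tap2 and the 5 genes most like Tap1 and each chaperone by Pearson r were eligible too. Cell markers, H2-D1, H2-K1, B2m and the genes that set libraries apart were named outside this rule. An entry that is no class I heavy chain was dropped from that list after its value was seen, and 1 entry of the list of promoter factors is not reported here. Promoter sequences and gene order come from RefSeq tables of GRCm38.p6. Alternatives comprised leaving out libraries, a replicate block, other pseudocounts, filters, scalings, variance models and thresholds.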

Additional observations from a re-analysis of the deposited data

How the results depend on the processing

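Differences of Tap1, Tap2, Tapbp, Tapbpl and Erap1 were positive under all 18 alternative fits, and Tap1 was called in each of them (adjusted p of at most 0.0259). Tap1 relative to Tap2 was also called in all 18 (adjusted p of at most 0.0055), as were Tap1 and Tap2 relative to the chaperones. Relative fits subtract shared values from every gene, so their calls are not comparable with direct ones and do not show greater robustness. Tapbp and Tapbpl relative to the chaperones were not called by limma treat against a fold of 1.5 (adjusted p = 0.0503 and 0.233), and Tapbpl not without LV replicate 2. Counts varied with the library left out. Leaving out single libraries gave 1 to 4 of the 8 measured genes called higher (3 with all libraries), and 119 to 313 higher and 10 to 116 lower over the table (315 and 73 with all libraries). Without LV replicate 3 and untreated replicate 2, 136 genes were lower. The treat setting gave 1 of the 8 genes, and 136 higher and 0 lower over the table; a threshold of 0.01 gave 1, 156 and 19, and one of 0.1 gave 225 lower. Deviations from the group means had correlations of 0.28, -0.47 and -0.34 between same-numbered libraries. The highest correlation was between LV replicate 3 and untreated replicate 2 (0.61), which stood apart in male-biased genes. With that split, the correlations cannot show whether same-numbered libraries are paired. With a replicate block, 1 of the 8 genes was called higher (Tap1), and 145 higher and 11 lower over the table. Scaling moved the median of all genes by less than 0.1. Signs of chaperone differences turned with single libraries left out (Calr -0.14 to 0.060, Canx -0.054 to 0.091, Pdia3 -0.15 to 0.084), with scaling by median of ratios (Calr 0.028, Pdia3 0.043), and for Pdia3 by total (0.0083), upper quartile (0.0074) and quantiles (0.038); none of them was called. With no read depth, precision rests on 3 samples per group.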
